A study of Homo sapiens with 6 samples.

Results

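Messenger RNA of 41 genes that act in the G2 phase and in mitosis was examined in SUM1315 cells with and without oxygen limitation. The genes were taken from a list of cyclins, mitotic kinases, checkpoint proteins, kinetochore proteins, kinesins and spindle or cytokinesis proteins, and all 41 were found among the 26409 genes of the deposited table. All 41 passed the filter for weakly expressed genes that left 11884 genes for testing. SUM1315 is an established human breast cancer cell line, labelled triple negative (lacking the oestrogen, progesterone and HER2 receptors that guide treatment) and wild type in genotype. The 2 groups were 3 libraries of cells held at 21% O2 (normoxia) and 3 of cells held for 24 h at 1% O2 (hypoxia). Both groups grew in the same medium with serum, insulin and EGF, and the series' text names ribosome production under hypoxia as its subject. Whether the 3 libraries of a group came from separate cultures is not given in the labels, so a p-value here reflects the variation among libraries only, possibly technical in origin.

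Cells enter mitosis when CDK1, bound to a B-type cyclin, is switched on by CDC25 phosphatases that remove the inhibitory phosphates added by WEE1. The spindle checkpoint then holds the cell until every kinetochore is attached to microtubules. CDC20 next activates the anaphase-promoting complex, which marks cyclin B and securin for destruction. Messenger RNAs of most of these genes rise from S phase to G2 in dividing cells and are low in resting cells. Their level in a bulk sample therefore reflects both how many cells are in G2 or mitosis and how much RNA each such cell holds, and fewer such cells and less RNA per cell cannot be told apart here.

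Promoters of many mitotic genes carry a short element, the cell cycle genes homology region (CHR), to which the DREAM and MuvB complexes bind, and CCAAT boxes bound by NF-Y. To show what the members share in sequence, RefSeq promoter windows (GRCh38.p14, 250 bases before to 50 after a transcript start, 1 window per gene) were matched to 33 of the 41 genes and searched on both strands for TTTGAA, the common CHR core, and for CCAAT, the NF-Y box. The first, TTTGAA, was found in 24 of the 33 windows (72.7%), against 8.61% of the windows of 9361 tested genes and 15.2% of all 35116 windows. CCAAT was found in 26 (78.8%), against 37.5% and 34.6%. In 15 members a TTTGAA began within 40 bases upstream of the transcript start. They were 4 of the 14 lowered members with a window and 11 of the 19 that were not called. A match is a description of the letters and not evidence of binding. The stretches of 30 bases that follow are 5′ to 3′ on the strand of the gene, with 1 TTTGAA or its reverse complement in capitals (for CCNB1, a CCAAT box). The ANLN stretch also holds the reverse complement TTCAAA, left in lower case, directly before the capitals. The first 3 are textbook G2/M genes that were not called in hypoxia, and the rest belong to members that were lowered. ANLN, CKS2, KIF4A and MKI67, the only lowered members among those 15, were picked for display after their values were seen.
CCNB2: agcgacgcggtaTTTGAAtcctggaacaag
CDC25C: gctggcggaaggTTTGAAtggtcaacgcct
PLK1: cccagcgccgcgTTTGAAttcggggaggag
ANLN: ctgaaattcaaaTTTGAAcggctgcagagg
CKS2: cgggctgtcggaTTCAAAtccggatcgttg
KIF4A: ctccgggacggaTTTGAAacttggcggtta
MKI67: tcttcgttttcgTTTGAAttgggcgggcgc
CCNB1: gccacgaacaggCCAATaaggagggagcag

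These stretches lie at chr15:59105105-59105134 (CCNB2, plus strand), chr5:138331817-138331846 (CDC25C, minus strand), chr16:23678848-23678877 (PLK1, plus strand) and chr7:36389830-36389859 (ANLN, plus strand). The others lie at chr9:89311154-89311183 (CKS2, plus strand), chrX:70290058-70290087 (KIF4A, plus strand), chr10:128126435-128126464 (MKI67, minus strand) and chr5:69167083-69167112 (CCNB1, plus strand). In these stretches the TTTGAA or TTCAAA starts 29 bases before the transcript start in CCNB2, PLK1, CKS2 and MKI67. The element was in 9 of the 14 lowered members with a window (64.3%) and in 15 of the 19 members that were not called (78.9%). Each window was the one nearest the start of the gene's most abundant transcript, with no limit on distance. That distance was 3455 bases in ECT2, which is among the 9, 349 in AURKB and 219 in MKI67. In the other members it was 156 bases or less. The windows of CDC25B and CCNB1, which showed the smallest adjusted p-values of the members, held no TTTGAA.

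In hypoxia 16 of the 41 genes were lowered and 0 were raised at an adjusted p below 0.05, from limma with Benjamini-Hochberg adjustment over all genes. Among all genes tested 24.4% were lowered and 12.4% raised by the same rule. The median log2 fold change of the 41 genes was -0.17, against -0.08 for all genes tested. All 3 hypoxic libraries lay below all 3 normoxic libraries for 22 members and above them for 0, where 35.6% and 16.4% of all genes did so. The changes were small: the lowered members were between 11.5% (CDC20) and 31.3% (CDC25B) below their normoxic mean. The split depended on scaling. With libraries scaled by the median of ratios 3 members were lowered (CDC25B, CCNB1 and BUB1) and 2 raised (CCNB2 and UBE2C). That is 7.32% of the members lowered, against 11.3% of all genes, and lowered genes went from 66.2% to 39.0% of the calls among all genes. With upper-quartile scaling 6 members were lowered (14.6%, against 14.01% of all genes) and 0 raised, so that under both scalings the members' share was near or below that of all genes. With libraries brought to equal sums 21 were lowered (51.2%, against 35.5% of all genes) and 0 raised.

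Levels are given in RPKM, reads scaled to transcript length and library depth, summed over the transcripts of a gene, and ± is the SD over 3 libraries. Fold changes are on the log2(RPKM + 1) scale, hypoxia against normoxia, so that the change of a gene at low level is understated. The members spanned normoxic means from 4.17 RPKM (CENPE) to 265 RPKM (CDC20), and rested on at least 529.6 estimated reads per library (WEE1).

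**Figure D1:**
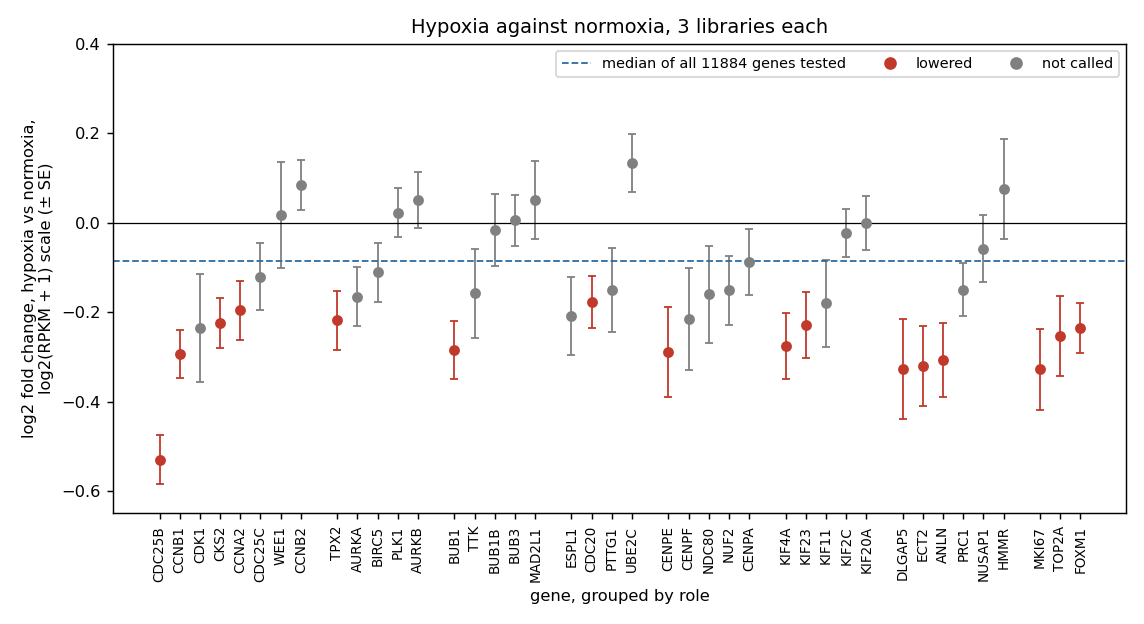
Log2 fold change of each of the 41 genes on the log2(RPKM + 1) scale, hypoxia against normoxia, with bars of 1 SE, grouped by role. The 16 lowered genes are in red, and CDC25B lies lowest at -0.53. The dashed line is the median of all 11884 genes tested.

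The switch that starts mitosis was lowered in part: 4 of 8 genes, CDC25B, CCNB1, CKS2 and CCNA2, fell and 4 were not called. Counts by role here and below stand beside the 24.4% of all genes tested that were lowered. The kinase, checkpoint and kinetochore roles (20% each) and the anaphase role (25%) were near or below that share. The kinesins were at 40%, the switch and the spindle and cytokinesis genes at 50%, and the last 3 genes at 100%. Each role holds few genes, and roles were not compared by a test. CDC25B (ENSG00000101224, chromosome 20, 3786772 to 3806121, GRCh38), a phosphatase that activates CDK1 early in mitotic entry, was at 57.98, 59.3 and 59.0 RPKM in normoxia and at 39.3, 40.2 and 41.6 RPKM in hypoxia. The gap between the groups was many times the spread within either, and it gave the largest decrease of the 41 genes (log2 fold change -0.53, SE 0.06, adjusted p = 6.55e-05). CCNB1 (ENSG00000134057, chromosome 5, 69167010 to 69178245), which encodes cyclin B1, was at 152, 154 and 160 RPKM in normoxia and at 128, 129 and 123 RPKM in hypoxia. All hypoxic libraries were below all normoxic ones (log2 fold change -0.29, SE 0.05, adjusted p = 0.00243). These 2 decreases were called under each of the 17 processing alternatives tried, with a largest adjusted p of 0.00312 for CDC25B and 0.0198 for CCNB1.

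CKS2, a small subunit that helps CDK1 engage its substrates, was at 139, 142 and 151 RPKM in normoxia and 126, 125 and 119 RPKM in hypoxia (log2 fold change -0.22, adjusted p = 0.0114). CCNA2, cyclin A2 of S phase and G2, was at 37.9, 38.0 and 40.3 RPKM and then at 34.7, 35.3 and 31.2 RPKM (log2 fold change -0.20, adjusted p = 0.0362). CCNA2 shares 254 exon bases with EXOSC9 on the other strand, and the library kit does not mark strand. Neither gene's groups overlapped. CDK1 itself, the kinase of the switch, was at 18.5, 17.2 and 19.5 RPKM in normoxia and 17.0, 17.9 and 12.1 RPKM in hypoxia. Its groups overlapped, and only the third hypoxic library was far below the rest (log2 fold change -0.24, SE 0.12, adjusted p = 0.141). CDC25C, the second phosphatase, was at 34.8 ± 0.243 and 32.0 ± 3.29 RPKM, and CCNB2, cyclin B2, at 49.9 ± 1.08 and 53.0 ± 1.79 RPKM. WEE1, the inhibitory kinase, was the weakest of the switch genes at 5.45 ± 0.235 and 5.59 ± 1.14 RPKM, with the third hypoxic library at 4.30 and the other two at 6.01 and 6.47 RPKM.

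**Figure D2:**
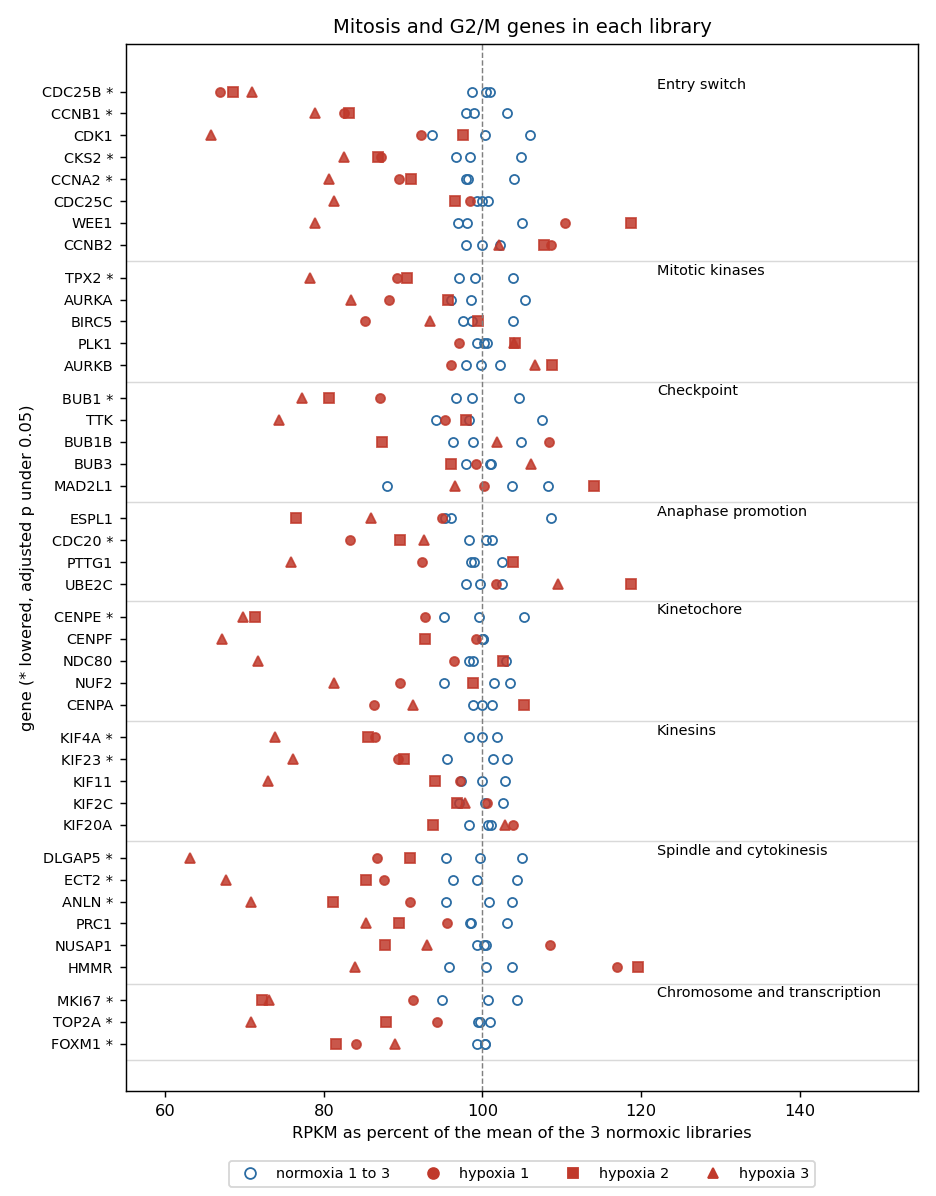
RPKM of each gene in each library as percent of the mean of its 3 normoxic libraries, with open circles for normoxia and filled symbols for hypoxia 1, 2 and 3, grouped by role. Asterisks mark the 16 lowered genes. The third hypoxic library (triangles) is the lowest of all 6 for 24 of the 41 genes.

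Ratios between close relatives were compared within libraries. The ratio of CCNB1 to CCNB2 within a library does not depend on scaling, and it was 3.05, 3.15 and 3.14 in normoxia and 2.37, 2.40 and 2.41 in hypoxia. The ratio of CDC25B to CDC25C was 1.68, 1.71 and 1.68 in normoxia and 1.15, 1.20 and 1.47 in hypoxia. For BUB1 to BUB1B it was 1.20, 1.26 and 1.22 and then 0.985, 1.13 and 0.930. For AURKA to AURKB it was 0.847, 0.906 and 0.951 and then 0.827, 0.792 and 0.705. In each of the 4 pairs the ratio was lower in all 3 hypoxic libraries than in all 3 normoxic ones (two-sided exact permutation p = 0.1 for each, the smallest that 3 against 3 libraries allow, and 0.1 adjusted over the 4 ratios). The design cannot reach 0.05 in this test. The pairs were not among the planned tests, and the first gene of each had the lower log2 fold change. The shared direction of the 4 ratios therefore follows from the single-gene values and adds no separate support.

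Of 5 genes of the mitotic kinases and their partners 1 was lowered. TPX2, the spindle protein that activates Aurora A, was at 126, 124 and 133 RPKM in normoxia and 114, 115 and 99.8 RPKM in hypoxia (log2 fold change -0.22, SE 0.07, adjusted p = 0.0254). Its groups did not overlap, and the third hypoxic library was the lowest. The kinases themselves were not called. AURKA, the spindle pole kinase Aurora A, was at 66.2, 67.9 and 72.6 RPKM and then at 60.7, 65.9 and 57.5 RPKM, all hypoxic libraries below all normoxic ones by a narrow margin (log2 fold change -0.17, adjusted p = 0.0691). AURKB, the centromere kinase Aurora B, was at 78.2, 74.9 and 76.3 RPKM in normoxia and 73.4, 83.1 and 81.5 RPKM in hypoxia, with groups that overlapped (log2 fold change 0.05, adjusted p = 0.537). PLK1, a kinase of entry, spindle assembly and cytokinesis, was at 106, 105 and 106 RPKM and then 103, 110 and 110 RPKM (log2 fold change 0.02, SE 0.05, adjusted p = 0.763). BIRC5 (survivin), which holds Aurora B at the centromere, was at 84.4 ± 2.84 and 78.2 ± 6.04 RPKM.

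Among 5 checkpoint genes BUB1 alone was lowered. This kinase, which marks centromeres and recruits checkpoint proteins to kinetochores (ENSG00000169679, chromosome 2, 110637698 to 110678114), was at 40.6, 41.4 and 43.9 RPKM in normoxia. In hypoxia BUB1 was at 36.5, 33.8 and 32.4 RPKM, without overlap (log2 fold change -0.29, SE 0.06, adjusted p = 0.00698). BUB1B, the checkpoint protein BUBR1, was at 34.2 ± 1.51 and 33.9 ± 3.70 RPKM. BUB3, which binds both, was at 126 ± 2.31 and 127 ± 6.52 RPKM, and TTK, the kinase that starts checkpoint signalling, at 11.0 ± 0.748 and 9.77 ± 1.42 RPKM. MAD2L1, the checkpoint inhibitor of CDC20, was at 26.8 ± 2.86 and 27.8 ± 2.48 RPKM.

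The transcripts of MAD2L1 are the authors' estimates from reads shared between overlapping models, and their differences were not tested one by one. The most abundant, ENST00000333047, a target of nonsense-mediated decay, was at 17.8 ± 1.93 RPKM in normoxia and 15.5 ± 3.20 RPKM in hypoxia, a share of 66.5% and then 55.4% of the gene. The protein-coding transcript ENST00000296509 was at 6.15, 5.88 and 6.17 RPKM in normoxia and 5.48, 5.42 and 4.47 RPKM in hypoxia. Transcript ENST00000511295, which retains an intron, was at 0.504, 3.96 and 2.33 RPKM and then at 4.88, 6.34 and 9.21 RPKM. From protein-coding transcripts alone, the log2 fold change of MAD2L1 was -0.21 (adjusted p = 0.0783). Most members were unlike MAD2L1: protein-coding transcripts made up at least 90% of the RPKM in 35 of the 41 genes in normoxia, and in 30 in both groups. Below 90% in normoxia beside MAD2L1 were NUSAP1 (58.7%), BUB1 (66.4%), ESPL1 (74.5%), BUB1B (75.0%) and CDC25B (81.1%). Counting only protein-coding transcripts lowered the same 16 members. In that fit BUB1 had a log2 fold change of -0.30 (adjusted p = 0.045) and CDC25B one of -0.61 (adjusted p = 4.2e-05). The most abundant of the 321 member transcripts was the same in both groups for 39 genes. Within AURKA, transcript AURKA-202 was at 19.1, 19.1 and 20.7 RPKM in normoxia and at 13.7, 15.6 and 13.0 RPKM in hypoxia, a share of 28.5% ± 0.408 and then 23.0% ± 0.649 of the gene. The most abundant CDC25B transcript, the protein-coding CDC25B-201, went from 45.4 to 29.1 RPKM on average, while CDC25B-206, a processed transcript, was at 10.0 and 8.59 RPKM.

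Of 4 genes that act at the start of anaphase 1 was lowered. CDC20, the activator of the anaphase-promoting complex and the most abundant member, was at 266, 261 and 269 RPKM in normoxia and 221, 238 and 246 RPKM in hypoxia (log2 fold change -0.18, SE 0.06, adjusted p = 0.0336). Its groups did not overlap. UBE2C, the ubiquitin-conjugating enzyme that works with that complex, was at 137, 140 and 144 RPKM and then 143, 166 and 154 RPKM. Its groups overlapped, and its estimate of 0.13 was the highest of all 41 genes (adjusted p = 0.119). PTTG1, securin, was at 116 ± 2.53 and 105 ± 16.3 RPKM. ESPL1, the protease separase that securin blocks, was at 15.6 ± 1.17 and 13.4 ± 1.44 RPKM (adjusted p = 0.0798).

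Kinetochore genes were lowered in 1 case of 5. CENPE, a kinesin that carries chromosomes to the spindle equator, was the weakest member at 3.97, 4.39 and 4.15 RPKM in normoxia and 3.87, 2.97 and 2.91 RPKM in hypoxia (log2 fold change -0.29, SE 0.10, adjusted p = 0.0437). One hypoxic library came close to the normoxic range. CENPF, a large kinetochore protein, was at 15.3 ± 0.00906 RPKM in normoxia and at 15.1, 14.2 and 10.2 RPKM in hypoxia (adjusted p = 0.158). The microtubule-binding pair NDC80 and NUF2 was at 39.9 ± 1.02 and 25.6 ± 1.11 RPKM in normoxia and at 36.0 ± 6.51 and 23.0 ± 2.25 RPKM in hypoxia. CENPA, the histone H3 variant of centromeres, was at 35.9 ± 0.445 and 33.9 ± 3.53 RPKM. All 5 estimates were below 0, between -0.29 and -0.09, as were those of 7584 of the 11884 genes tested (median -0.08). The sign depended on the setting. CENPA was at 0.002 with median-of-ratios scaling. NUF2 and NDC80 were at 0.06 and 0.03 with the trend on GC content removed. The rest stayed below 0 in each of these fits.

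Of 5 kinesins 2 were lowered. KIF4A, a chromosome-bound motor that also acts at the spindle midzone, was at 20.0, 20.4 and 20.7 RPKM in normoxia and 17.6, 17.4 and 15.0 RPKM in hypoxia (log2 fold change -0.28, SE 0.07, adjusted p = 0.0142). KIF23, the motor of the centralspindlin complex, was at 43.2, 39.99 and 42.4 RPKM and then 37.4, 37.7 and 31.9 RPKM (log2 fold change -0.23, SE 0.07, adjusted p = 0.0325). Neither motor's groups overlapped. KIF11, which pushes spindle poles apart, was at 13.3 ± 0.372 and 11.7 ± 1.75 RPKM. KIF2C, a microtubule depolymerase at centromeres, was at 88.0 ± 2.44 and 86.6 ± 1.74 RPKM, and KIF20A, a cytokinesis motor, at 46.6 ± 0.702 and 46.7 ± 2.60 RPKM. The log2 fold changes of KIF2C and KIF20A were -0.02 and 0.00 with SE of 0.05 and 0.06.

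Spindle and cytokinesis proteins were lowered in 3 cases of 6. ANLN, the cleavage furrow scaffold anillin, was at 67.0, 63.5 and 69.0 RPKM in normoxia and 60.4, 54.0 and 47.1 RPKM in hypoxia (log2 fold change -0.31, SE 0.08, adjusted p = 0.0156). ECT2, the exchange factor that activates RhoA at the furrow, was at 44.6, 46.0 and 48.4 RPKM and then 40.5, 39.5 and 31.3 RPKM (log2 fold change -0.32, SE 0.09, adjusted p = 0.0179). DLGAP5, a microtubule-stabilising spindle protein, was at 41.9, 43.7 and 46.1 RPKM and then 38.0, 39.9 and 27.7 RPKM (log2 fold change -0.33, SE 0.11, adjusted p = 0.0412). None of these groups overlapped, and the third hypoxic library was the lowest in all of them. PRC1, which bundles midzone microtubules, was at 129 ± 3.40 and 117 ± 6.66 RPKM (adjusted p = 0.066), and shares 57.6% of its exon bases with the gene model ENSG00000284946. NUSAP1, a spindle microtubule binder, was at 79.4 ± 0.461 and 76.6 ± 8.60 RPKM. HMMR, a spindle pole protein, was at 24.2, 22.3 and 23.4 RPKM in normoxia and 27.3, 27.9 and 19.6 RPKM in hypoxia, so that hypoxic libraries lay on both sides of the normoxic ones.

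The 3 remaining genes were all lowered. MKI67 (ENSG00000148773, chromosome 10, 128096659 to 128126385), the coat protein of mitotic chromosomes used as the Ki-67 proliferation marker, was at 16.9, 17.5 and 15.9 RPKM in normoxia and 15.3, 12.1 and 12.3 RPKM in hypoxia (log2 fold change -0.33, SE 0.09, adjusted p = 0.0165). TOP2A, the topoisomerase that untangles sister chromatids, was at 73.3, 72.2 and 72.4 RPKM and then 68.4, 63.8 and 51.5 RPKM (log2 fold change -0.25, SE 0.09, adjusted p = 0.0456). FOXM1 (ENSG00000111206, chromosome 12, 2857681 to 2877155), a transcription factor that drives G2/M genes, was at 101, 99.8 and 101 RPKM and then 84.4, 81.8 and 89.4 RPKM (log2 fold change -0.24, SE 0.06, adjusted p = 0.00816). The hypoxic FOXM1 values all lay well below the normoxic ones. None of the 3 genes' groups overlapped. FOXM1 shares 781 exon bases, 15.9% of its own, with ITFG2 on the other strand, a gene at 6.95 RPKM in normoxia and 6.50 RPKM in hypoxia.

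The count of 16 rested partly on single libraries. CDC25B, CCNB1, BUB1 and FOXM1 were the 4 members called in all 6 fits that left out 1 library. The other 12 each lost the call without at least 1 normoxic library, and their largest adjusted p over these fits ran from 0.0609 (KIF4A) to 0.145 (CCNA2). Without normoxia replicate 1, 2 or 3 the numbers of lowered members were 8, 7 and 5 (19.5%, 17.1% and 12.2%). Of all genes 14.9%, 13.7% and 12.9% were lowered in those fits, so that calls were lost among all genes too. Without hypoxia replicate 1 or 2 the numbers were 18 (43.9%, with UBE2C raised) and 19 (46.3%), against 24.3% and 24.1% of all genes. CENPE lost its call without hypoxia replicate 2. Without hypoxia replicate 3 the number was 10 (24.4% of the members, against 23.3% of all genes), with HMMR raised (log2 fold change 0.23, adjusted p = 0.017). CCNA2, CENPE, DLGAP5, KIF23, TOP2A and TPX2 were no longer called without that library, with adjusted p between 0.0523 and 0.11. Without it the log2 fold change went from -0.33 to -0.17 for DLGAP5, from -0.32 to -0.21 for ECT2, from -0.25 to -0.13 for TOP2A and from -0.23 to -0.15 for KIF23. The members' median then was -0.08, against -0.09 for all genes.

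The third hypoxic library stood apart for these genes. Its median log2 deviation from the normoxic mean over the 41 genes was -0.29, while the first and second hypoxic libraries gave -0.09 and -0.10. Over all genes tested only the medians of the 3 hypoxic libraries were alike, at -0.08, -0.08 and -0.07. Split by GC content of the transcripts, the third differed across all genes. All genes under 40% GC had a median of -0.41 in the third and -0.15 in the first. Those at 55% and over had 0.11 in the third and -0.03 in the first. Of the 3 hypoxic libraries the third was the lowest for 26 of the 41 members, and for 33.2% of all genes. The geometric mean level of the 41 genes was 44.7, 45.05 and 46.2 RPKM in normoxia and 42.4, 42.1 and 37.5 RPKM in hypoxia. All hypoxic libraries were thus below all normoxic ones. In the first and second hypoxic libraries, however, the members' median deviation (-0.09 and -0.10) was close to that of all genes (-0.08 and -0.08).

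The GC content and the length of the transcripts both moved with these differences. Their part in them was not tested beyond removing each trend. Over the 41 genes, the deviation in the third hypoxic library correlated with GC content at r = 0.55 (across genes, which are not independent), and the mean deviation of the first and second at r = -0.17. Over all 11884 genes the values were 0.51 and 0.24. With log2 transcript length the members' values were -0.48 and -0.34, against -0.19 and -0.21 over all genes. The members' log2 fold change correlated at r = 0.16 with GC content and at -0.46 with log2 length. Over all genes these were 0.35 and -0.21. The 10 members under 40% GC had a median deviation of -0.41 in the third hypoxic library and of -0.08 and -0.06 in the first and second. All 891 tested genes under 40% GC had a median of -0.41 there as well. In each other GC bin the members' median in the third hypoxic library was lower than that of all genes. It was -0.38 against -0.27 at 40 to 45% GC (7 members) and -0.26 against -0.13 at 45 to 50% (15 members). At 50 to 55% it was -0.06 against -0.03 (4 members), and at 55% and over -0.11 against 0.11 (5 members). The median GC content was 46.2% in the members, 42.7% in the lowered members and 50.5% in all genes tested. With the trend on GC content removed from every library, 8 members were lowered and 3 raised (CCNB2, HMMR and MAD2L1). The 8 are 19.5% of the members, against 20.4% of all genes lowered in that fit, and the members' median was -0.03, against -0.04 for all genes. CDC25B (59.1% GC), CCNB1, BUB1, CDC20, FOXM1, KIF4A and MKI67 were lowered in both fits, and ESPL1 was called with that trend removed only. With the trend on transcript length removed 6 members were lowered (BUB1, CCNB1, CDC20, CDC25B, CKS2 and FOXM1) and 0 raised, or 14.6% of the members against 17.7% of all genes.

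**Figure D3:**
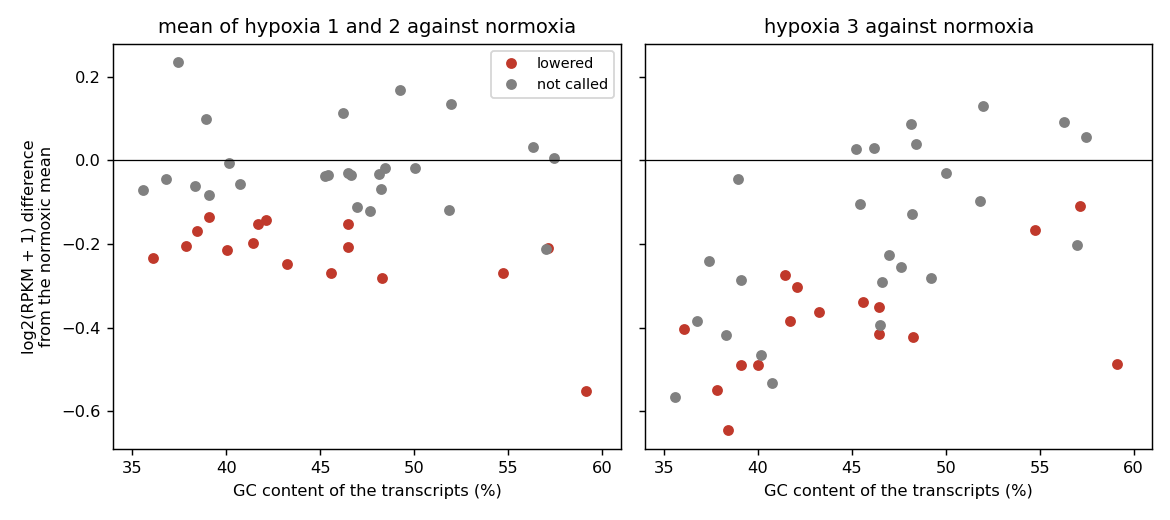
Difference of each of the 41 genes from its normoxic mean, in log2(RPKM + 1), against the GC content of its transcripts, for the mean of hypoxia 1 and 2 (left) and for hypoxia 3 (right). Lowered genes are in red. In hypoxia 3 the genes of low GC content lie lowest (r = 0.55 over 41 genes), and CDC25B is an exception at 59.1% GC.

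**Figure D4:**
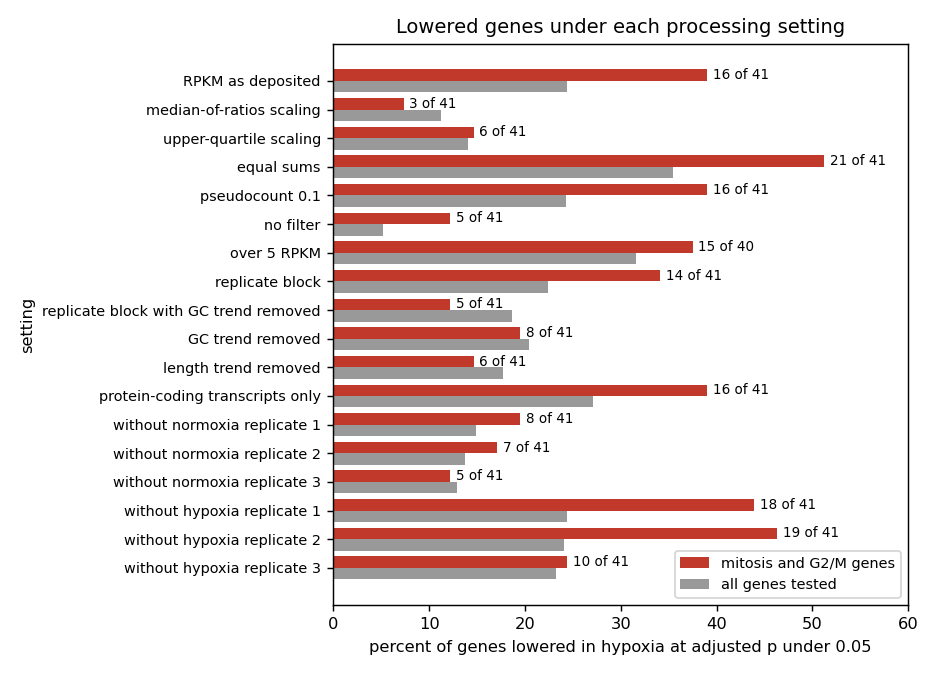
Percent of genes lowered in hypoxia at an adjusted p under 0.05 under each processing setting, for the 41 mitosis and G2/M genes (red) and for all genes tested (grey). The red bars run from 3 of 41 with median-of-ratios scaling to 21 of 41 with equal sums, and lie below the grey ones with median-of-ratios scaling and in the fits with the GC or length trend removed and without normoxia replicate 3.

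A further 132 genes of mitosis outside the 41 were read in 10 lists as context, and 46 were lowered (34.8%, against 24.4% of all genes) and 4 raised, with a median log2 fold change of -0.20. Of 19 proteins of the constitutive centromere 7 were lowered and 2 raised. CENPN, which reads CENPA nucleosomes, fell from 33.1 ± 1.59 to 26.2 ± 0.410 RPKM and CENPM from 30.4 ± 1.84 to 24.8 ± 1.17 RPKM. HJURP, the chaperone that loads CENPA, rose from 29.1 ± 0.687 to 41.8 ± 1.07 RPKM (log2 fold change 0.51, adjusted p = 0.000121), and CENPH rose from 10.3 ± 1.07 to 12.6 ± 1.01 RPKM. In the outer kinetochore 4 of 11 were lowered, among them SKA1, a partner of NDC80 (12.6 ± 0.246 to 8.98 ± 1.21 RPKM), and ZWINT. Of 11 checkpoint and passenger partners 4 were lowered, including ZW10 and ZWILCH, both of the complex that recruits dynein. Condensins, which compact chromosomes, were lowered in 4 of 8 cases, with NCAPG2 falling from 55.9 ± 0.0446 to 45.6 ± 1.67 RPKM and SMC4 from 66.4 ± 3.45 to 53.7 ± 3.70 RPKM.

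Of 11 cohesin genes 5 were lowered, among them STAG2 and PDS5A. Of 17 genes of the anaphase-promoting complex and its partners 6 were lowered and 1 raised. Its subunits ANAPC1 (18.7 ± 1.36 to 13.3 ± 1.05 RPKM) and ANAPC13 fell, and ANAPC16 rose from 15.8 ± 0.920 to 19.1 ± 2.24 RPKM. Among 7 other mitotic kinesins only KIF18A was lowered. Of 18 spindle pole and cytokinesis genes 5 were lowered, among them ARHGAP11A and ASPM (5.35 ± 0.172 to 3.62 ± 0.758 RPKM). Of 16 entry kinases and regulators 6 were lowered and 1 raised: CDC25A, the phosphatase of the G1/S step, fell from 10.2 ± 0.533 to 7.37 ± 0.622 RPKM, ARPP19 fell, and the kinase NEK6 rose from 31.3 ± 0.672 to 45.1 ± 4.76 RPKM (log2 fold change 0.51, adjusted p = 0.000706). Of 14 factors of mitotic gene transcription 4 were lowered, among them LIN52, a MuvB subunit (7.07 ± 0.907 to 4.51 ± 0.657 RPKM), and E2F4. The count for the 132 genes also depended on the setting. With the GC trend removed 25 were lowered (18.9%, against 20.4% of all genes) and 4 raised. With median-of-ratios scaling 17 were lowered (12.9%, against 11.3% of all genes) and 8 raised. Without hypoxia replicate 3 the numbers were 34 (25.8%, against 23.3% of all genes) and 3.

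Depth recovered from the smallest steps of the values was 50.3 to 50.7 M reads per library in normoxia and 43.9 to 50.5 M in hypoxia, lowest in the third hypoxic library. Hypoxia-responsive genes checked the labels: SLC2A1, a glucose transporter, was at 5.24 to 5.65 RPKM in normoxia and 40.3 to 53.4 RPKM in hypoxia, and VEGFA, BNIP3, PDK1 and NDRG1 were also raised. CA9 was listed at 0 in normoxia and at most at 0.0639 RPKM in hypoxia. ESR1 was at most at 0.209 RPKM and ERBB2 at 20.2 to 23.7 RPKM. PGR was looked up but not found among the 26409 genes with a summed value, so it could not be checked. The 7 epithelial markers were at 0.11 RPKM or less in every library, so these markers of mammary epithelium were all but absent, and the mesenchymal list was mixed. Of its genes VIM was at 4741 to 7439 RPKM, while the normoxic means of ZEB1, CDH2, FN1 and SPARC were 7.98, 3.001, 1.44 and 0.304 RPKM. PTPRC, the defining leukocyte gene, was at most at 0.00826 RPKM, and PECAM1 of endothelium at most at 0.0954 RPKM. CD68, a lysosomal gene of the leukocyte list that other cells also express, was at 45.8 to 48.3 RPKM in normoxia and 73.5 to 80.7 RPKM in hypoxia.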

How the data were processed

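Total RNA of 6 SUM1315 libraries was sequenced from NEBNext Ultra libraries, per the labels' protocols. The submitters' processing notes name the tools Partek, SAMtools, HISAT2 and Trimmomatic, with GRCh38 (hg38) as build. The authors deposited 1 table of RPKM values for 165956 transcripts. That the unit is RPKM, and the depth of 43.93 to 50.67 M reads per library, were read from the values, in which 79.9% to 80.9% of low single-transcript values lay within 0.1 of a whole number of reads. Of these transcripts 84.4% matched GENCODE 29 and were summed to 26409 genes. The others held 3.44% to 3.68% of the RPKM.

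Genes over 1 RPKM in at least 3 libraries were tested with limma 3.58.1 (R 4.3.3, intensity trend) on log2(RPKM + 1), with Benjamini-Hochberg adjustment over all 11884 genes and a threshold of 0.05. The script was tested on simulated data, where it recovered 94% and 100% of genes changed by log2 1 and -1. At 0.5 and -0.5 it recovered 66% and 68%, and 3.53% of all calls were false. Smaller changes, such as the estimates of every member but CDC25B, were not simulated. A member that was not called may therefore still have changed. No member was left out. All 41 members are named. Of each list of other genes, up to 2 lowered and 2 raised genes are named, by smallest adjusted p. The members, lists and rules were chosen with earlier results of these data known. Alternatives changed scaling, pseudocount, filter, replicate block, GC and length trends, transcript set and libraries.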

Additional observations from a re-analysis of the deposited data

How the results depend on the processing

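The decreases of CDC25B and CCNB1 were called under all 17 alternatives, and the number of lowered members (16 as reported) was not stable. Median-of-ratios scaling gave 3 lowered and 2 raised members and 17 lowered and 8 raised other mitosis genes. Upper-quartile scaling gave 6 lowered members and 24 lowered other genes, and equal sums gave 75 lowered and 2 raised other genes. No filter on low values, which tests 26409 genes, gave 5 lowered members (12.2%, against 5.18% of all genes). That setting gave 11 lowered (8.33%) and 2 raised other genes. GC trend removal gave 8 lowered and 3 raised members with a median of -0.033, and 25 lowered other genes. Length trend removal gave 6 and 28 lowered. The cause of these shifts was not tested.

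Leaving out 1 library gave 5 to 19 lowered and 0 to 1 raised members with medians of -0.22 to -0.08, and 22 to 54 lowered and 2 to 6 raised other genes. Of all genes 12.9% to 24.3% were lowered in these fits. Deviations of same-numbered libraries correlated at 0.0901, 0.0301 and -0.227, and those of differently numbered ones at -0.252 to 0.204. With 3 libraries per group these values cannot decide whether replicate numbers pair the libraries. The replicate block gave 14 lowered members (34.1%, against 22.4% of all genes). The replicate block with GC trend removed gave 5 lowered (12.2%, against 18.6% of all genes) and 3 raised members. The members' median was then -0.033, and 23 other genes (17.4%) were lowered. Among 696 values of single members under alternatives, 523 kept their direction and side of the threshold, 50 (in 16 members) changed sign with no call in either setting, 101 lost a call and 22 gained one.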
